A study of Mus musculus with 12 samples.

Results

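The histone deacetylase family is described here in primary mouse embryonic fibroblasts (MEFs) exposed to low oxygen. Its 10 members, Hdac1 to Hdac10, were taken as every probe set that the annotation of the Mouse430_2 array gives to these symbols. They had 17 probe sets, of which 13 had a mean signal of at least 100 over the 12 arrays and were tested, and 4 lay below that level and are described by their signals only. Every member kept at least 1 tested probe set, and the series as a whole holds 18193 genes with a probe set of their own, 10059 of them tested. No histone deacetylase transcript changed past an adjusted p of 0.05 with hypoxia or with the deletion of the CH1 domain of CBP and p300, whereas Sap30 and Rcor2 encode subunits of corepressor complexes that contain Hdac1 and Hdac2 and were called. Sap30 rose in hypoxia in both line types, and Rcor2 in control lines, a call kept in 20 of 31 alternatives, and in the mean of both types. Rcor2 reached the mean of 100 only through its hypoxia arrays, and under a stricter filter it was not tested. The gene lists that hold Sap30 and Rcor2 were chosen with earlier results of these data known. The members with the smallest unadjusted p were Hdac9, with lower signals in the triCH1 lines, and Hdac7, with higher ones. Neither passed the adjustment over all probe sets. Hdac9 reached the mean of 100 through its control arrays, with a mean of 96.2 in the triCH1 lines.

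Total RNA came from 12 cultures of 6 MEF lines made from e14.5 embryos, with 1 array per culture and 3 arrays in each of 4 groups. The triCH1 lines carried a CH1 deletion on 3 of the 4 CBP and p300 alleles: triCH1flox2_1 and triCH1flox2_2 were CBP CH1/CH1;p300 CH1/flox, and triCH1flox1 was CBP CH1/flox;p300 CH1/CH1. The control lines had no CH1 deletion, and flox2_1 and flox2_2 were p300 +/flox and flox1 was CBP +/flox. All 6 lines, controls included, had 1 floxed allele and were infected with Cre adenovirus at passage 3, then grown at least 100-fold. Cultures were kept for 6 h at 0.1% O2 (hypoxia) or 21% O2 (normoxia), with 5% CO2 at 37 °C. A control line is therefore no wild type: it is a line with 1 conditional allele treated with Cre. The labels do not say whether lines of a type came from separate embryos, so the p-values measure the spread between these lines.

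Histone deacetylases remove acetyl groups from lysines of histones and of other proteins, which closes chromatin and lowers transcription where corepressors bring them to DNA. They work against acetyltransferases such as CBP and p300, whose CH1 domain binds the transactivation domain of the hypoxia-inducible factor HIF-1α. Class I enzymes (Hdac1, Hdac2, Hdac3 and Hdac8) are mainly nuclear, and all but Hdac8 act inside corepressor complexes. Class IIa proteins (Hdac4, Hdac5, Hdac7 and Hdac9) bind MEF2 transcription factors and shuttle between nucleus and cytoplasm, and class IIb enzymes (Hdac6 and Hdac10) act largely in the cytoplasm.

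Values are the authors' linear signals, scaled to a target of 500 on each array, and a change is a difference of log2(signal + 20), given with its standard error from limma. For hypoxia changes, this error comes from a fit that does not pair the cultures of a line, unless the line is named as a block. The 3 signals of a group are listed in the order triCH1flox2_1, triCH1flox1 and triCH1flox2_2, or flox2_1, flox1 and flox2_2. Array medians ran from 57.2 to 76.1 with scale factors of 2.57 to 4.28, and the number of arrays limits the precision. The hypoxia target Bnip3 (1422470_at) rose by 4.39 ± 0.18 in triCH1 lines and by 4.46 ± 0.18 in control lines. Crebbp (1435224_at), which encodes CBP, averaged 755 and 791 in flox1 and triCH1flox1, whose floxed gene is Crebbp, against 1045 to 1804 in the others. Ep300 (1434765_at), which encodes p300, averaged 237 to 424 in the other lines, whose floxed gene is Ep300, against 499 and 655 in flox1 and triCH1flox1. Where these probe sets lie relative to the deletions was not analysed here. All 12 fibroblast markers had a mean of at least 100, with summed signals between 159130 and 227712 on an array. The sum does not show single markers. In the means of triCH1 against control lines, 2 were higher and 2 lower at an unadjusted p under 0.05, beside 9.83% of all tested probe sets. None was called. Thy1 had the smallest p, with −1.06 ± 0.21 (adjusted p = 0.219, limma). Of the markers of other cell types on the array, 2 of 7 skeletal muscle, 0 of 6 endothelial and 3 of 6 macrophage markers reached that mean. So did 3 of 7 epithelial and 3 of 6 neural markers. Those below it included Myod1, Pecam1, Ptprc, Cdh1 and Sox10. Those above it included Des (314.5), Actc1 (118.4), Csf1r (194.3), Krt18 (214.3), Krt19 (3118), Nes (1066) and Tubb3 (173). In bulk RNA, a lower share of cells with a transcript and less of it per cell cannot be told apart.

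The promoters of 4 members and of Sap30 and Rcor2 are shown because hypoxia-inducible factor binds short sites with the core ACGTG or GCGTG, and they set members without a called change beside the corepressor subunits that rose. RefSeq's promoter table for build GRCm38.p6 holds 250 bases before and 50 bases after a transcription start, and it had 11 promoters of 7 members. They are given 5′ to 3′ on the strand of the gene, with every match to ACGTG or GCGTG, or to their reverse complements CACGT and CACGC, in capitals. The first bases of the matches lie at −213, −98 and −68 in Hdac7 (start 3 in the order of that table), at 4 and 5 in Hdac5, at −177 and −90 in Hdac6, at −147 and −103 in Sap30 and at −149, −100, −30 and −29 in Rcor2, counted from the start site as 1 with no 0. In Hdac5 and Rcor2, matches on opposite strands overlap as CACGTG.
Hdac9, start 1 (chr12:34917046-34917345, minus strand): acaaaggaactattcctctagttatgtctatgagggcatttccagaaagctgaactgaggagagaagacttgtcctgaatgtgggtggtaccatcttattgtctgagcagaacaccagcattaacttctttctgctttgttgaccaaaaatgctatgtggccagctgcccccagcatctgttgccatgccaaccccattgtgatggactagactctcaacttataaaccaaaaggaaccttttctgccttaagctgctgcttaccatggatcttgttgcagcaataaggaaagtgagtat
Hdac7, start 3 (chr15:97831718-97832017, minus strand): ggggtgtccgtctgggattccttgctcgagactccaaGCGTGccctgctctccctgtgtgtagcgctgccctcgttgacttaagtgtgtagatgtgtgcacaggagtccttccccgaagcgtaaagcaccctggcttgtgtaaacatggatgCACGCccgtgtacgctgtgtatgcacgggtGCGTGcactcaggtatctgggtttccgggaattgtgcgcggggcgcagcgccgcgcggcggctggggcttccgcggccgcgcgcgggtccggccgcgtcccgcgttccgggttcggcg
Hdac5 (chr11:102230123-102230422, minus strand): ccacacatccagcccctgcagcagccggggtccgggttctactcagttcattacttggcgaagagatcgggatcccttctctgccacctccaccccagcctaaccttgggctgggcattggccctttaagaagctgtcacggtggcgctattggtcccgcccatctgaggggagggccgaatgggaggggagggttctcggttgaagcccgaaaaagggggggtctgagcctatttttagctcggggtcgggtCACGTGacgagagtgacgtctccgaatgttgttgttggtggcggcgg
Hdac6 (chrX:7947840-7948139, minus strand): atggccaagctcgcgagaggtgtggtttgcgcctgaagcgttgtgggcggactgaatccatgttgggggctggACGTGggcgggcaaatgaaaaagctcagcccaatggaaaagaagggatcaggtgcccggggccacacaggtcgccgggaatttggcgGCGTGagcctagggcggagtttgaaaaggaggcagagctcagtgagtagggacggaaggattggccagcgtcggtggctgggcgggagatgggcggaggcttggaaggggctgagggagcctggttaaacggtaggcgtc
Sap30 (chr8:57487811-57488110, minus strand): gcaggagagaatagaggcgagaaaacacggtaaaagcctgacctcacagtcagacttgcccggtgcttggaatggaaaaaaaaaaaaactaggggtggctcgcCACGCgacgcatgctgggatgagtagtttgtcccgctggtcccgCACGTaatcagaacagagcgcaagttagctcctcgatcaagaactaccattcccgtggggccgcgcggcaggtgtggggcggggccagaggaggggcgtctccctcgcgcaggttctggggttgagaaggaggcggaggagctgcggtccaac
Rcor2 (chr19:7267144-7267443, plus strand): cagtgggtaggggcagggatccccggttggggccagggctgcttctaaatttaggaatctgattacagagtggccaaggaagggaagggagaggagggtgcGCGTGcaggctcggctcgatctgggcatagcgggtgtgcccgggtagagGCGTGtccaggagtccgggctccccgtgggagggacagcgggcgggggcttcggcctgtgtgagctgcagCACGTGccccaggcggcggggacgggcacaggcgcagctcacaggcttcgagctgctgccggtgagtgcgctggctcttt
A match was present in 3 of the 11 member promoters, 1 each of Hdac5, Hdac6 and Hdac7, against 43.8% of all 32851 promoters of this length. All 3 are among the member promoters shown, so those shown do not stand for the 11. ACGTG alone was in 19.6% of all promoters and GCGTG alone in 32.4%. The Hdac9 promoter printed here had 44% G and C and 0 CpG, against a median of 52.7% G and C over all promoters. A match is a string of letters and does not show binding.

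No histone deacetylase changed with hypoxia beyond the spread between lines in the test over all probe sets. At an adjusted p under 0.05, 0 of the 13 member probe sets were called in the triCH1 lines, where 0.635% of all 18903 tested probe sets were. In the control lines 0 of 13 were called, against 0.831% of all, and 0 of 13 for the mean of both line types, against 1.75%. Without adjustment, no member had a p under 0.05 in these comparisons, where 6.25%, 5.98% and 11.3% of all tested probe sets had. With the line as a block, 0 members were called again, while the called shares of all probe sets were 1%, 1.4% and 3.67%. The median change of the 13 probe sets was 0.013 in triCH1 lines and −0.015 in control lines, beside medians of −0.021 and −0.038 over all tested probe sets. With 3 lines in each group, the 95% intervals of single members reached well over changes of this size. The plot of hypoxia changes gives each of them.

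**Figure D1:**
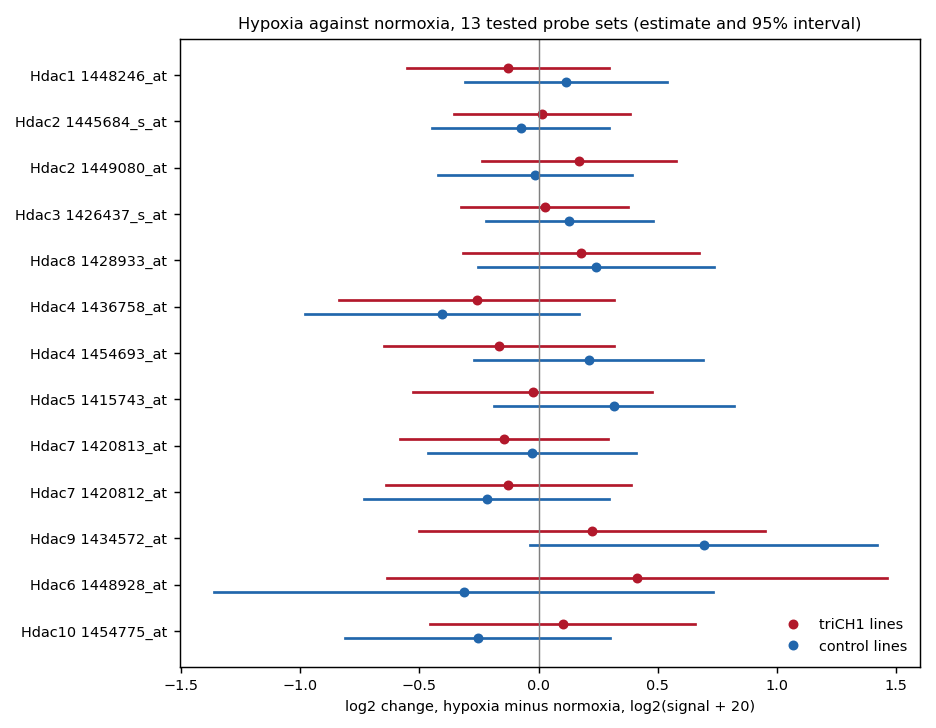
Log2 change of signal in hypoxia against normoxia for the 13 tested histone deacetylase probe sets, in triCH1 lines (upper, red) and control lines (lower, blue); points are limma estimates and bars 95% intervals (n = 3 arrays in each group). All intervals include 0, from the narrow ones of Hdac2 and Hdac3 to those of Hdac6 and Hdac9. They come from the fit that does not pair the cultures of a line.

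Among the class I enzymes, Hdac1 and Hdac2 are the catalytic subunits of the Sin3, NuRD and CoREST corepressors. The signals of Hdac1 (1448246_at; chromosome 4) were 4899.8, 4213 and 6169.7 in triCH1 hypoxia and 5156, 5886 and 5481 in triCH1 normoxia, and 4745, 3813 and 5486 in control hypoxia and 3887, 3530.3 and 5696 in control normoxia. The groups overlapped in both line types, and the change in hypoxia was −0.13 ± 0.20 in triCH1 lines and 0.11 ± 0.20 in control lines. In triCH1 normoxia the lowest of the 3 Hdac1 values lay above 2 of the 3 in control normoxia, with the culture of flox2_2 as the exception. The estimate of triCH1 against control in normoxia was 0.36 ± 0.20 (adjusted p = 0.76, limma). RefSeq lists a processed pseudogene, Hdac1-ps, that the Hdac1 probes may share, so its signal is uncertain to that extent.

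Hdac2 (1445684_s_at; chromosome 10) had signals of 3398, 3406 and 4384 in triCH1 hypoxia and 3988, 3147 and 3934 in triCH1 normoxia, and 3310.2, 2855 and 4029 in control hypoxia and 4116, 3346 and 3242 in control normoxia. All 4 groups overlapped. The change of Hdac2 in hypoxia was 0.013 ± 0.17 in triCH1 lines and −0.076 ± 0.17 in control lines, and their mean of −0.032 had an interval of −0.29 to 0.23. Its other tested probe set, 1449080_at, gave 0.17 ± 0.19 and −0.015 ± 0.19. The 2 probe sets varied together over the arrays, with r = 0.821 (n = 12).

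Hdac3, the catalytic subunit of the NCoR/SMRT corepressor, was read by 1426437_s_at (chromosome 18). Its signals were 2403, 1937 and 2372 in triCH1 hypoxia and 2129.7, 2356 and 2089 in triCH1 normoxia, and 2205, 2354 and 1711 in control hypoxia and 1764, 1786 and 2150.0 in control normoxia. The 2 lines of each type with higher Hdac3 in hypoxia stood against triCH1flox1 and flox2_2, in which it was lower. The change was 0.025 ± 0.16 in triCH1 lines and 0.13 ± 0.16 in control lines. The mean over both types was 0.077 with an interval of −0.17 to 0.32, the narrowest among the members. Hdac8, which removes acetyl groups from the cohesin subunit SMC3, gave 168 to 203 in triCH1 hypoxia, 148 to 197 in triCH1 normoxia, 147 to 217 in control hypoxia and 131 to 154 in control normoxia (1428933_at; chromosome X). It was higher in hypoxia in 5 of 6 lines, by 0.18 ± 0.23 in triCH1 and 0.24 ± 0.23 in control lines, with overlapping groups.

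The class IIa proteins have little deacetylase activity of their own in vertebrates and recruit the Hdac3 complex. For Hdac4 (chromosome 1), 1436758_at gave 384, 169 and 205 in triCH1 hypoxia and 295, 322 and 254 in triCH1 normoxia, and 241, 163 and 194 in control hypoxia and 262, 266 and 274 in control normoxia. In the triCH1 lines the groups overlapped, with triCH1flox2_1 higher in hypoxia, and in the control lines all 3 hypoxia values lay below all 3 normoxia values. The share of all probe sets with such a separation was not counted. The changes were −0.26 ± 0.27 in triCH1 lines and −0.41 ± 0.27 in control lines (adjusted p = 1 in the control lines, limma). A second Hdac4 probe set, 1454693_at, did not share this pattern, with −0.17 ± 0.22 in triCH1 and 0.21 ± 0.22 in control lines and r = −0.204 to the first over 12 arrays. The direction of Hdac4 in control lines therefore depended on the probe set, and in triCH1 lines both estimates were negative.

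Hdac5 (1415743_at; chromosome 11) had signals of 438, 486 and 442 in triCH1 hypoxia and 389, 493 and 519 in triCH1 normoxia, and 782, 439 and 469.6 in control hypoxia and 419, 356 and 546 in control normoxia. One culture, flox2_1 in hypoxia, stood above all others at 782. Its change was −0.025 ± 0.23 in triCH1 lines and 0.32 ± 0.23 in control lines, and the groups overlapped in both.

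Hdac7 (chromosome 15) is known as a repressor in endothelial cells and thymocytes, and it was measured by 2 tested probe sets. With 1420813_at its signals were 957, 1023 and 835 in triCH1 hypoxia and 905, 1032 and 1188 in triCH1 normoxia, and 834, 763 and 633 in control hypoxia and 729, 589 and 991 in control normoxia. Its difference between hypoxia and normoxia was −0.14 ± 0.20 in triCH1 lines and −0.027 ± 0.20 in control lines, and the lowest differences of single lines were −0.50 in triCH1flox2_2 and −0.63 in flox2_2. With 1420812_at the changes were −0.13 ± 0.24 and −0.22 ± 0.24, with lower signals in hypoxia in 5 of 6 lines.

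Hdac9 (chromosome 12), which represses MEF2 targets in muscle, had the largest hypoxia estimate of the family. Its signals with 1434572_at were 126, 135 and 57.6 in triCH1 hypoxia and 82.9, 57.4 and 119 in triCH1 normoxia, and 177, 202 and 217 in control hypoxia and 148, 126 and 80.7 in control normoxia. In triCH1 lines the groups overlapped, with triCH1flox2_2 lower in hypoxia, and in control lines the 3 hypoxia values lay above the 3 normoxia values. How many of all probe sets separate in this way was not counted, so nothing is read from it for Hdac9. The change was 0.22 ± 0.34 in triCH1 lines and 0.69 ± 0.34 in control lines (interval −0.035 to 1.42, adjusted p = 0.886 in the control lines, limma). The second Hdac9 probe set, 1421306_a_at, averaged 39.2 and was not tested.

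The class IIb enzyme Hdac6, which deacetylates tubulin, varied widely between lines. Its signals (1448928_at; chromosome X) were 645, 344 and 253 in triCH1 hypoxia and 545, 341 and 118 in triCH1 normoxia, and 269.9, 401 and 143 in control hypoxia and 251, 452 and 279 in control normoxia. The triCH1flox2_1 cultures were the highest in both conditions, and the lowest value of 118 came from triCH1flox2_2 in normoxia. The change in hypoxia was 0.41 ± 0.49 in triCH1 lines and −0.32 ± 0.49 in control lines, with intervals of −0.64 to 1.46 and −1.36 to 0.73. These errors are from the fit without pairing and include the spread of Hdac6 between lines. With the line as a block, the Hdac6 changes were 0.41 ± 0.24 and −0.32 ± 0.24, neither called. Hdac10, which deacetylates a polyamine, acetylspermidine, gave 164.2 to 194 in triCH1 hypoxia, 137 to 180.4 in triCH1 normoxia, 93.0 to 163.5 in control hypoxia and 135 to 195 in control normoxia (1454775_at; chromosome 15). Its change was 0.10 ± 0.26 in triCH1 lines and −0.26 ± 0.26 in control lines, and flox1 in hypoxia was the single value under 100. In hypoxia its triCH1 values lay just above its control values, and the share of all probe sets that do so was not counted.

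**Figure D2:**
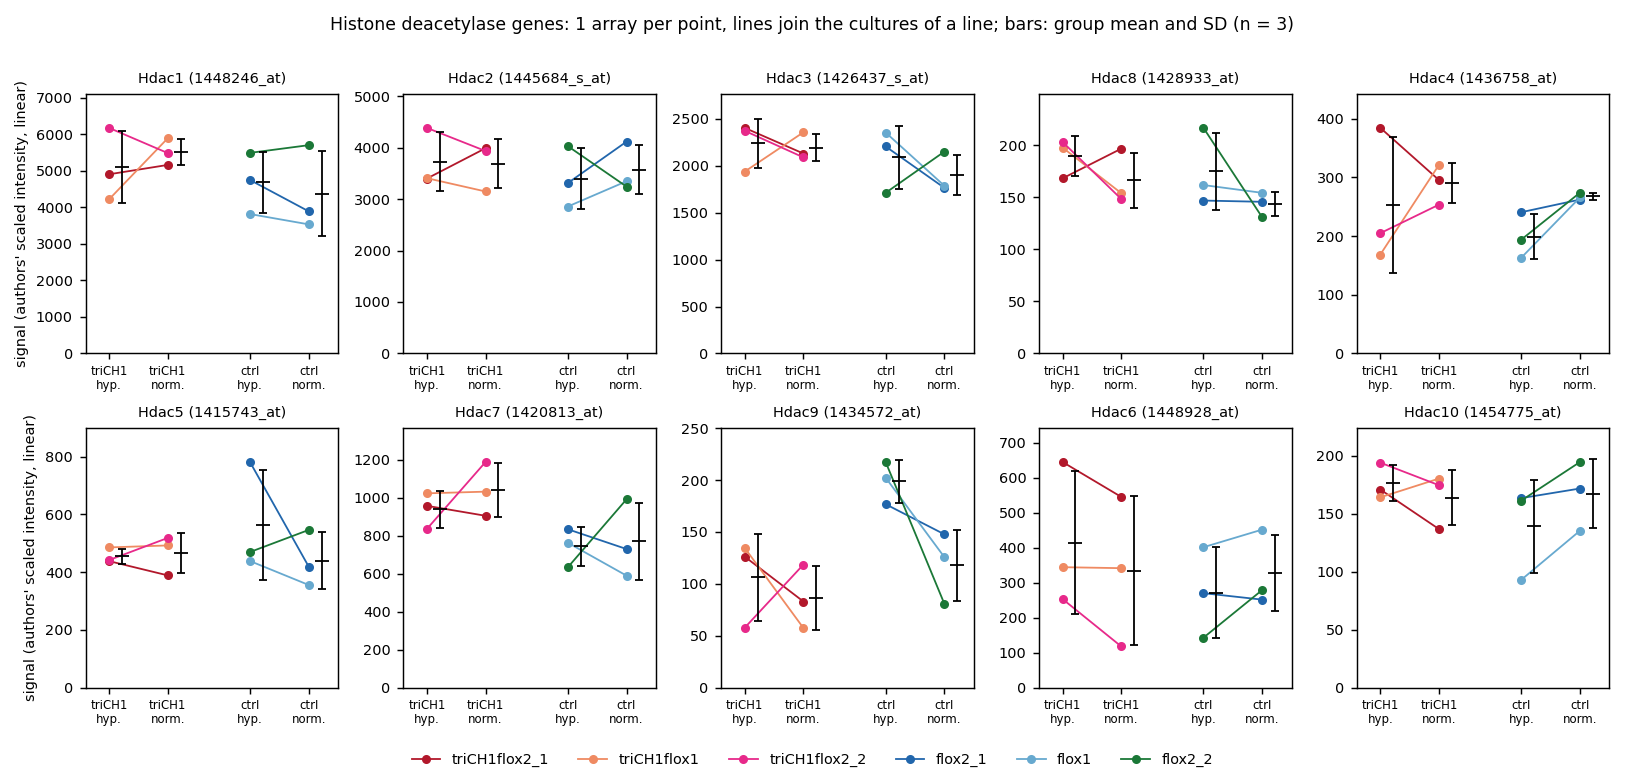
Signal (authors' scaled intensity, linear) of the probe set with the highest mean of each histone deacetylase gene, by group; each point is 1 array, lines join the hypoxia and normoxia cultures of a MEF line, and bars give the group mean and SD (n = 3). Hdac9 is high in the 3 control hypoxia cultures (177 to 217), and Hdac6 spreads between lines from 118 to 645.

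The question whether the CH1 domain alters the response of these genes was addressed by the difference between the changes in triCH1 and control lines. At an adjusted p under 0.05, 0 of 13 members and 0% of all tested probe sets differed, and without adjustment 0 members and 0.693% of all did. The largest difference was 0.73 ± 0.69 for Hdac6, with an interval of −0.76 to 2.21. Hdac9 followed with −0.47 ± 0.48 and an interval of −1.50 to 0.56. The intervals of Hdac2 (1445684_s_at) and Hdac3 were narrower, at −0.43 to 0.61 and −0.60 to 0.39. These intervals come from the fit without pairing. With the line as a block, the Hdac6 difference was 0.73 ± 0.34 and that of Hdac9 −0.47 ± 0.51 (adjusted p = 1 for both, limma).

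Between genotypes no member was called, and the estimates of most lay above 0 in triCH1 lines. In hypoxia 0 of 13 member probe sets were called against 0.0741% of all tested, and in normoxia 0 of 13 against 0.00529%. Without adjustment, Hdac9 had a p under 0.05 in hypoxia and Hdac7 in normoxia, that is 1 of 13 each, beside 7.97% and 7.56% of all tested probe sets. For Hdac7 in normoxia this held in 14 of 32 alternatives and not with the line as a block, where 0 members had such a p. For Hdac9 in hypoxia it held in 25 of the 31 in which Hdac9 was tested, and a stricter filter left it out. Hdac9 entered the test through its control arrays, so nothing is read from this count for Hdac9. With 1 mean per line, 0 of 13 were called and 0% of all, and Hdac7 and Hdac9 had an unadjusted p under 0.05, as had 9.83% of all. In that comparison 11 of the 13 estimates were above 0, with a median of 0.16 against 0.026 over all tested probe sets. The 13 probe sets stand for 10 genes, and the share of all probe sets above 0 was not counted. The shift was not particular to the family. Medians of the 7 partner lists given below ran from −0.009 in class IIa partners to 0.158 in NCoR/SMRT, with 0.144 in acetyltransferases. Every triCH1 line mean lay above every control line mean for 3 of the 13 (Hdac3, Hdac8 and Hdac7 with 1420813_at), against 8.09% of all tested probe sets, and below it for 1 (Hdac9), against 6.38% of all.

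Hdac9 had lower signals in triCH1 lines, short of the threshold. Averaged over both oxygen conditions, its signal was 105, 96.0 and 88.0 in triCH1flox2_1, triCH1flox1 and triCH1flox2_2, against 162, 164 and 149 in flox2_1, flox1 and flox2_2. The line means did not overlap. Of the cultures in hypoxia, the highest triCH1 value of 135 lay below the lowest control value of 177, and in normoxia the groups overlapped. For single cultures, the share of all probe sets that separate in hypoxia was not counted. The estimates were −0.85 ± 0.34 in hypoxia (adjusted p = 0.557), −0.39 ± 0.34 in normoxia (adjusted p = 0.919) and −0.62 ± 0.21 over line means (adjusted p = 0.406, limma). The mean of the triCH1 lines, 96.2, was below the limit of 100, so Hdac9 entered the test through its control arrays. The low probe set 1421306_a_at averaged 31.1 in triCH1 lines and 47.3 in control lines, with overlap.

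Hdac7 had higher signals in triCH1 lines with 1420813_at, also short of the threshold. Its line means were 931, 1027 and 1011 in triCH1flox2_1, triCH1flox1 and triCH1flox2_2, against 782, 676 and 812 in flox2_1, flox1 and flox2_2. They did not overlap. Single cultures overlapped in normoxia, and in hypoxia the lowest triCH1 value of 834.8 lay just above the highest control value of 833.7. How many of all probe sets separate by single cultures was not counted. The estimates were 0.45 ± 0.20 in normoxia (adjusted p = 0.653), 0.33 ± 0.20 in hypoxia (adjusted p = 0.707) and 0.39 ± 0.14 over line means (adjusted p = 0.412, limma). The probe set 1420812_at gave 0.31 ± 0.19 over line means in the same direction, with means of 618, 398 and 454 in triCH1 lines against 359, 358 and 428 in control lines, and its lines overlapped.

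**Figure D3:**
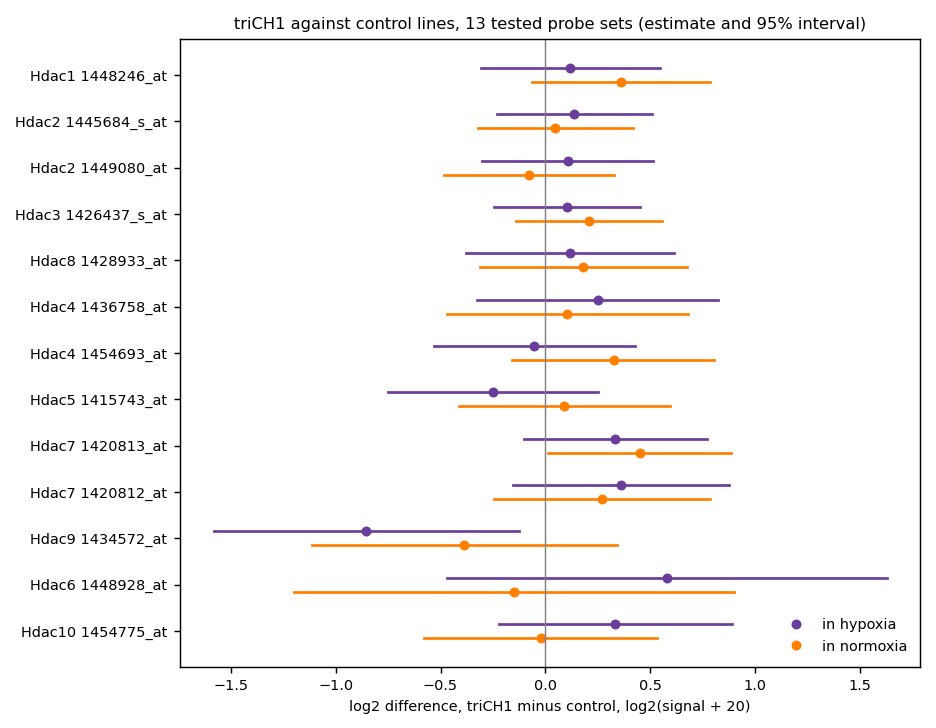
Log2 difference of signal between triCH1 and control lines for the 13 tested histone deacetylase probe sets in hypoxia (upper, purple) and normoxia (lower, orange); points are limma estimates and bars 95% intervals (n = 3 arrays in each group). The intervals of Hdac9 in hypoxia (−1.58 to −0.13) and Hdac7 with 1420813_at in normoxia (0.013 to 0.89) leave out 0, neither past an adjusted p of 0.05.

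The class I genes gave no called difference between line types. Over line means the estimate was 0.24 ± 0.16 for Hdac1, 0.093 ± 0.13 for Hdac2, 0.16 ± 0.11 for Hdac3 and 0.15 ± 0.18 for Hdac8. For Hdac3 the triCH1 lines had 2266, 2146 and 2230.3, against 1984, 2069.8 and 1930.3 in control lines, and the lowest triCH1 line lay just above the highest control line. For Hdac8 the triCH1 lines had 182.3, 175.8 and 175.7, against 146.2, 157.9 and 173.6 in control lines, where 175.7 lay just above 173.6. Hdac4 (1436758_at), Hdac5, Hdac6 and Hdac10 gave 0.18 ± 0.20, −0.08 ± 0.18, 0.21 ± 0.41 and 0.16 ± 0.22, all with overlapping line means.

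The lines themselves differed most in Hdac6. Its mean over both conditions was 595, 343 and 185 in triCH1flox2_1, triCH1flox1 and triCH1flox2_2, and 261, 427 and 211 in flox2_1, flox1 and flox2_2. The highest line stood 3.21-fold above the lowest, which was percentile 94.8 of all tested probe sets, whose median ratio was 1.56. Hdac3 and Hdac2 (1449080_at) were among the steadiest, with ratios of 1.17 and 1.18, at percentiles 4.2 and 4.4. Hdac6 and Hdac8 lie on the X chromosome, and the X-inactivation transcript Xist was at 459 or more in triCH1flox1, triCH1flox2_2 and flox2_1 and at 90 or less in triCH1flox2_1, flox1 and flox2_2. The Y-chromosome gene Eif2s3y was at 33 or less in the Xist-high lines and at 919 or more in the Xist-low lines. By these markers the former were female and the latter male, so sex was not balanced between triCH1 and control lines. The Hdac6 line means in the Xist-high lines, 343, 185 and 261, overlapped those of the Xist-low lines, 595, 427 and 211. Those of Hdac8 also overlapped, with 175.8, 175.7 and 146.2 in the Xist-high and 182.3, 157.9 and 173.6 in the Xist-low lines. The part of the sex difference in the Hdac6 and Hdac8 levels was not tested.

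Pairs of members had few patterns in common over the 12 arrays. Apart from the 2 Hdac2 probe sets, the highest correlation was r = 0.785 between Hdac4 (1436758_at) and Hdac7 (1420812_at), followed by 0.673 between Hdac2 (1449080_at) and Hdac8 and 0.645 between Hdac1 and Hdac10. The 2 tested Hdac7 probe sets had r = 0.432. These are descriptions over arrays that share lines and oxygen conditions. Outside the family, the gene with the most similar pattern over the 12 arrays was Eif4b for Hdac1 (r = 0.91), Sgpp1 for Hdac2 (0.979), Anapc5 for Hdac3 (0.888) and Txnl1 for Hdac8 (0.863). For the class IIa genes it was Atpaf1 for Hdac4 (0.916), Tspan9 for Hdac5 (0.806), Cbx6 for Hdac7 (0.957) and Tsc22d2 for Hdac9 (0.912). For class IIb it was Trappc11 for Hdac6 (0.878) and Msln for Hdac10 (0.898). Each was the highest of all tested probe sets with 1 symbol, so a high value is built into the choice.

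Of the genes whose products work with the deacetylases, 2 corepressor subunits rose in hypoxia. The 7 lists of complex subunits, class IIa partners, other deacetylases and acetyltransferases held 77 genes, 71 of them tested. In triCH1 lines 1 rose and 0 fell, against 0.635% of all tested probe sets called in either direction. In control lines 2 rose and 0 fell, against 0.831% of all, and the Rcor2 call among them was lost in 11 of 31 alternatives. For the mean of both line types 2 rose and 0 fell, against 1.75% of all. These are counts of 1 and 2 genes, and nothing particular to the lists is read from them. In the genotype comparisons and the difference in response 0 were called in either direction. The median change of the 71 genes was 0.004 in triCH1 lines and −0.005 in control lines, beside −0.021 and −0.038 over all tested probe sets.

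Sap30, a small subunit of the Sin3 complex that helps hold Hdac1 and Hdac2 to its scaffold, was the called gene of both line types. Its signals (1417719_at) were 2326, 2661 and 2739.5 in triCH1 hypoxia, against 919.9, 955 and 959 in triCH1 normoxia. In control lines they were 2449, 2333 and 2789 in hypoxia, against 696, 726 and 735 in normoxia. All hypoxia values lay above all normoxia values. Sap30 rose by 1.43 ± 0.14 or 2.68-fold in triCH1 lines (adjusted p = 8.92e-05) and by 1.78 ± 0.14 or 3.43-fold in control lines (adjusted p = 6.11e-06, limma), with the folds on the scale of signal + 20. The difference between the responses was −0.35 ± 0.20 (adjusted p = 1). In normoxia the 3 triCH1 values lay above the 3 control values, with an estimate of 0.39 ± 0.14 (adjusted p = 0.52, limma). The share of all probe sets with that separation was not counted. The Sap30 promoter holds 1 ACGTG and 1 GCGTG match. The other 13 tested genes of the Sin3 list were not called in any comparison.

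Rcor2, a CoREST scaffold protein that joins Hdac1 and Hdac2 to the demethylase LSD1, was low in normoxia. Its signals (1417302_at) were 232, 211 and 275 in triCH1 hypoxia, against 114, 4.2 and 97.5 in triCH1 normoxia. In control lines they were 267, 248 and 260.2 in hypoxia, against 35.1, 8.2 and 35.5 in normoxia. No hypoxia value overlapped a normoxia value, but 5 of the 6 normoxia values lay under 100, so the size of the change depends on the added constant. Rcor2 reached the required mean of 100 through its hypoxia arrays, with group means of 239 and 258 in triCH1 and control hypoxia against 71.8 and 26.3 in triCH1 and control normoxia. In triCH1 lines the estimate was 1.83 ± 0.52 (adjusted p = 0.288, limma). Rcor2 rose by 2.65 ± 0.52 in control lines (adjusted p = 0.0257) and by 2.24 ± 0.37 in the mean of both line types (adjusted p = 0.00411, limma), and the difference between the responses was −0.82 ± 0.74 (adjusted p = 1). The call in control lines was lost with a constant of 1 (adjusted p = 0.182) and without any one of the control arrays or control lines, or without line triCH1flox2_2, with adjusted p up to 0.357. The call for the mean of both line types was kept in the 30 alternatives in which Rcor2 was tested. A stricter filter on the mean signal left Rcor2 untested. The Rcor2 promoter holds 2 matches to each core, those to ACGTG on overlapping letters.

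**Figure D4:**
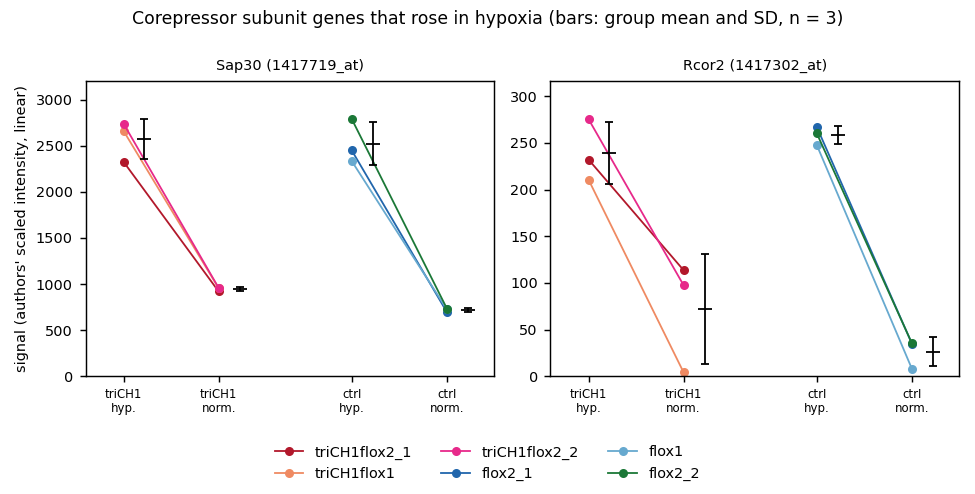
Signal (authors' scaled intensity, linear) of Sap30 and Rcor2, subunits of corepressors that contain Hdac1 and Hdac2, by group; each point is 1 array, lines join the cultures of a MEF line, and bars give the group mean and SD (n = 3). Both are higher in every hypoxia culture than in every normoxia culture.

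The summed signal of the 7 epithelial markers was also higher in hypoxia, at 3720 to 3891 in triCH1 hypoxia against 1446 to 2622 in triCH1 normoxia, and at 6023 to 7722 in control hypoxia against 1429 to 2390 in control normoxia. Krt19, a simple keratin, averaged 3118 over the arrays and rose by 1.27 ± 0.24 in triCH1 and 2.10 ± 0.24 in control lines (adjusted p = 0.0227 and 0.000191, limma), whereas Cdh1, Krt5, Krt14 and Krt8 averaged under 100. Without Krt19 the sum of the other 6 was 247 to 701 in triCH1 hypoxia against 456 to 1034 in triCH1 normoxia, and 422 to 450.2 in control hypoxia against 461 to 579.7 in control normoxia, so the higher sum came from Krt19 alone. Of the other tested markers, Epcam gave −0.79 ± 0.32 in triCH1 and 0.16 ± 0.32 in control lines, and Krt18 gave −0.23 ± 0.47 and −0.033 ± 0.47, none of them called.

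The other lists had no called gene in any comparison. Their members with the smallest p are given as values for some of the comparisons. Of the other deacetylases, with 7 of 8 tested, the NAD-dependent Sirt7 had −0.44 ± 0.17 in triCH1 and −0.28 ± 0.17 in control lines with hypoxia (adjusted p = 0.631 and 1, limma). Over the line means of triCH1 against control, Sirt1 had 0.39 ± 0.18 (adjusted p = 0.536, limma). Hdac11, the class IV enzyme, averaged 91.7 and 47.7 with its 2 probe sets and was not tested. Of the 9 NuRD genes, Mta2 had −0.51 ± 0.20 in triCH1 lines and the remodeller Chd4 −0.27 ± 0.19 in control lines (adjusted p = 0.669 and 1). The methyl-CpG-binding family member Mbd3 had 0.46 ± 0.13 over the line means of triCH1 against control (adjusted p = 0.346). Of NCoR/SMRT, with 3 of 5 genes tested, Tbl1x had 0.20 ± 0.13 in triCH1 and 0.30 ± 0.13 in control lines with hypoxia (adjusted p = 0.923 and 0.794). Tbl1xr1 had 0.60 ± 0.33 over the line means of triCH1 against control (adjusted p = 0.595, limma).

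Of the 19 tested class IIa partners, the MEF2 factor Mef2c had 1.12 ± 0.35 with hypoxia in triCH1 lines (adjusted p = 0.398) and −1.09 ± 0.35 for triCH1 against control in normoxia (adjusted p = 0.447, limma). The kinase Prkd2, which phosphorylates class IIa proteins, had −0.51 ± 0.29 with hypoxia in control lines (adjusted p = 0.975). Of the 12 acetyltransferases, Ncoa3 had −0.50 ± 0.23 in triCH1 and Kat6b 0.53 ± 0.27 in control lines with hypoxia (adjusted p = 0.794 and 0.93). Hat1 had 0.62 ± 0.24 over line means of triCH1 against control (adjusted p = 0.461). In the CoREST list, Phf21a had 0.48 ± 0.17 over the same line means (adjusted p = 0.411).

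The 4 member probe sets under a mean of 100 are described without a test. Hdac2 1439704_at had 91.9, 34.5 and 74.9 in triCH1 hypoxia and 93.4, 42.9 and 61.3 in triCH1 normoxia, and 6.9, 3.6 and 29.1 in control hypoxia and 73.1, 66.3 and 55.8 in control normoxia. The 3 control hypoxia values were the lowest of the 12, which neither of the brighter Hdac2 probe sets showed. Hdac4 1447566_at was lower in hypoxia in 5 of 6 lines, all but triCH1flox2_1. With a mean of 96.9, it lay just under the limit and ran from 22.1 to 207 on single arrays. Hdac9 1434572_at, at 127, lay closest above it. Hdac9 1421306_a_at averaged 39.2 and Hdac10 1441832_at 13.5, and no direction was read from either.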

How the data were processed

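Per the labels, the deposited values are probe set signals, an intensity on a linear scale from the Statistical algorithm of Affymetrix with a target of 500, set by the authors. Each array averaged 500 once its lowest and highest 2% of values were left out. Software version and genome build are not given in the sources used here, and no detection calls were used. The table holds 45101 probe sets, 64 of them controls that were left out. GEO's array annotation gave 34945 exactly 1 symbol, 932 several and 9160 none.

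Signals were tested as log2(signal + 20) where the mean over the arrays reached 100, which 18903 probe sets did, in a model of 4 group means with 8 residual degrees of freedom (lmFit and eBayes with trend, limma 3.58.1, R 4.3.3, two-sided, tested on simulated data). Benjamini-Hochberg adjustment ran within each of 7 comparisons, and the last used 6 line means with 4 residual degrees of freedom. Hypoxia and normoxia arrays of a line were taken as paired by the line name in the labels, and the correlation of their deviations from the group means lay between −0.02 and 0.575. Array pairs had r between 0.936 and 0.962, with 0 identical pairs.

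The members and lists were chosen with earlier results of these data known. Named are all members, by the probe set with the highest mean with the others beside it, and the gene most similar to each. Of each list, the called genes are named, or otherwise the one with the smallest p in some of the comparisons. Alternatives concerned the constant, filter, normalization, variance prior, arrays in the fit, line as a block, Xist and floxed gene as covariates, probe set summary, and each array and line left out.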

Additional observations from a re-analysis of the deposited data

How the results depend on the processing

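Each count of called histone deacetylase probe sets was recomputed under the alternatives that could be run, and all 208 recomputed counts were 0. With the replicate block (line as a block) the count was 0 in each comparison within and between line types, with a smallest member adjusted p of 0.361 (limma), so the paired analysis changed no member's call. The smallest adjusted p of a member under any alternative was 0.181, for Hdac7 over line means with the floxed gene as a covariate. Of 2059 recomputed member changes, 0 passed the threshold and 116 had the other sign than reported, all of them changes with an unadjusted p above 0.05. Hdac9 in triCH1 against control hypoxia lay between −1.03 and −0.54 in 31 alternatives, and over line means between −0.73 and −0.39 in 17. A stricter filter on the mean signal left Hdac9 untested. Hdac7 over line means lay between 0.29 and 0.43 in 18. Sap30 kept its calls in both line types under the alternatives run. Signals near 100, such as those of Hdac9, are close to the limit set for testing, and 3 lines of each type limit what can be seen.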
